A study of Mus musculus with 24 samples.

Results

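Clone 7 of the recombination named i7 was compared with the parental line of i7. The comparison uses 4 of the 24 libraries of the series: the columns of the deposited count table that its header names for i7 clone 7 (2 replicates) and for the i7 parental line (2 replicates). Every library has a count for the 129S1 allele and a count for the CAST allele of each gene, and the alleles were analysed separately and as their sum. The study sequenced poly(A) RNA from clones of 5 recombinations and from their parental lines to ask how gene expression changed on recombination.

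The cells of both groups were F121/9 mouse embryonic stem cells, a female F1 hybrid line that carries a 129/Sv and a CAST/EiJ genome. Both groups grew in 2i and LIF, that is with the MEK inhibitor PD0325901 at 1 µM, the GSK-3 inhibitor CHIR99021 at 3 µM and leukemia inhibitory factor. The labels give the genotype of the parental libraries as control and that of the clone 7 libraries as recombined. They name the recombination by its code only, without its type or its ends, and clone 7 is 1 clone, so a change in it cannot be told apart from a difference that this clone would have without the recombination. Clone 12 of i7, also recombined (2 libraries), was used where a result asked whether clone 7 stands apart. The labels call the replicates biological duplicates and give no culture dates, so p-values measure the spread between these samples.

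In an F1 hybrid, reads that cover a variant between the parental genomes can be assigned to 1 chromosome of a pair. A rearrangement of 1 chromosome that alters a nearby gene then shows as a change of 1 allele, with the other allele of the same cell as an internal control. The study's title concerns contacts between the genome and the nuclear lamina, a protein layer under the nuclear envelope that is mostly lined by weakly transcribed chromatin. Als2cl, on which the results below turn, encodes a protein of the endosomal pathway. Tdgf1 (Cripto), its highly expressed neighbour, encodes a co-receptor of Nodal.

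The stretch of chromosome 9 on which the alleles differed holds the starts of Als2cl and Tmie, which lie head to head. The bases between the 5′ end of Tmie in GENCODE M21 and the RefSeq start of Als2cl are shown because both genes start near them. Both genes also had fewer CAST counts in clone 7, but Tmie had only 1 and 3 in the parental libraries against 0 and 0. These bases lie at chr9:110880114-110880173 of GRCm38.p6, plus strand, and are taken from RefSeq, the reference strain and not the CAST genome. In GENCODE M21 Als2cl starts earlier, at 110879870 within Tmie. An exon of a non-coding transcript of Als2cl spans the bases shown. The capitals mark a GC box, the letters GGGCGG read on either strand.
Als2cl and Tmie starts: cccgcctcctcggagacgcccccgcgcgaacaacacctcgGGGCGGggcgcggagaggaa
The 60 bases hold 1 GC box and 10 CG pairs. In the 250 bases before its start Als2cl had 1 GC box and 23 CG pairs, and 32.7% of 32851 RefSeq promoters had a GC box in a window of that length, with a median of 6 CG pairs. The 250 bases before the start of Gbe1, which had fewer CAST counts in clone 7, lie at chr16:70313699-70313948, plus strand.
Gbe1 upstream: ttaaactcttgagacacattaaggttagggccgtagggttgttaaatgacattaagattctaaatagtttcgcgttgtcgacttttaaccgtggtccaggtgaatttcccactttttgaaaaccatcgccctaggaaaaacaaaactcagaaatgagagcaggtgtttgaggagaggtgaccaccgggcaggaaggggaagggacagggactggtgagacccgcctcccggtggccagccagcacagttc
They hold 0 GC boxes and 9 CG pairs.

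The 4 libraries held 7358368 and 10922801 counts in the parental line and 8340459 and 13853975 in clone 7. With mitochondrial genes left out, the 129S1 allele had 48.7% to 48.8% of the counts in all 4, and mitochondrial genes had 3.95% to 4.36%. Embryonic stem cell markers (Pou5f1, Sox2, Nanog, Klf4, Esrrb and Zfp42) summed to 4299 to 5321 CPM, which are counts scaled to a common library size. Of 7 fibroblast markers 5 had no count in any of the 4 libraries and the sum was 14.8 to 17.3 CPM, most of it Thy1. Of the trophoblast markers 3 of 4 and of the early neural markers 2 of 4 had no count. Mesendoderm markers summed to 11.1 to 14.5 CPM and primitive endoderm markers to 3.10 to 4.76 CPM, with Foxa2 at 0.

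Als2cl changed its allelic ratio in clone 7, and it was the 1 gene of 10795 tested that did so (0.00926% called; 209 genes, 1.94%, at an unadjusted p under 0.05). CAST counts of Als2cl (ENSMUSG00000044037.15, chromosome 9, 110879870 to 110900530, plus strand) were 107 and 155 in the parental libraries and 6 and 19 in those of clone 7. Its 129S1 counts were 134 and 185 in the parental libraries and 126 and 184 in clone 7. The CAST values of the groups lie far apart, whereas the 129S1 counts of clone 7, before scaling to depth, are near those of the parental line. In RNA from a whole culture, fewer cells with CAST transcripts and less CAST RNA per cell cannot be told apart.

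Scaled to the size of each library's CAST counts, CAST Als2cl was 28.3 ± 0.457 CPM in the parental line and 2.08 ± 0.893 CPM in clone 7 (SD, n = 2). The summed counts, 262 and 25, were 12.6-fold lower in clone 7 after scaling to depth, with a 95% counting interval of 8.35 to 19.8. The 129S1 allele was 33.0 ± 1.59 CPM in the parental line and 27.0 ± 2.88 CPM in clone 7, and did not pass the test (log2 change -0.29, SE 0.530). Its summed counts, 319 and 310, were 1.24-fold lower in clone 7 after scaling, with a 95% counting interval of 1.05 to 1.45. The scaled 129S1 values of the groups did not overlap. The 129S1 share of Als2cl was 55.6% and 54.4% in the parental libraries (95% Wilson intervals 49.3% to 61.7% and 49.1% to 59.6%), and 95.5% and 90.6% in clone 7 (90.4% to 97.9% and 85.8% to 93.9%). Intervals cover counting error only.

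The log2 ratio of 129S1 to CAST counts of Als2cl rose by 3.35 (SE 0.331, Benjamini-Hochberg adjusted p 3.88e-05 by the quasi-likelihood test of edgeR), and the share was higher in both clone 7 libraries than in both parental ones. In the CAST counts alone the log2 change was -3.69 (SE 0.607), with an adjusted p of 0.0725. It passed with a term for the replicate number (adjusted p 6.95e-06). In a fit of the 4 libraries alone the ratio did not pass (adjusted p 0.286), with the same size of change. The sum of both alleles was 241 and 340 counts in the parental line and 132 and 203 in clone 7, a log2 change of -1.05 (SE 0.547, unadjusted p 0.0717) that did not pass.

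Als2cl also had a high 129S1 share in clone 12 of i7, with 18 and 31 CAST counts and shares of 87.5% and 87.1%. The ratio of clone 7 was not shown to differ from that of clone 12 (log2 difference 0.87, adjusted p 0.713). Over the other clones of the series, i7 clone 12 among them, the share of Als2cl lay between 70.3% and 91.5%, and over the libraries of all 5 parental lines between 48.1% and 63.6%. The lower CAST counts of Als2cl were thus not particular to clone 7.

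**Figure D1:**
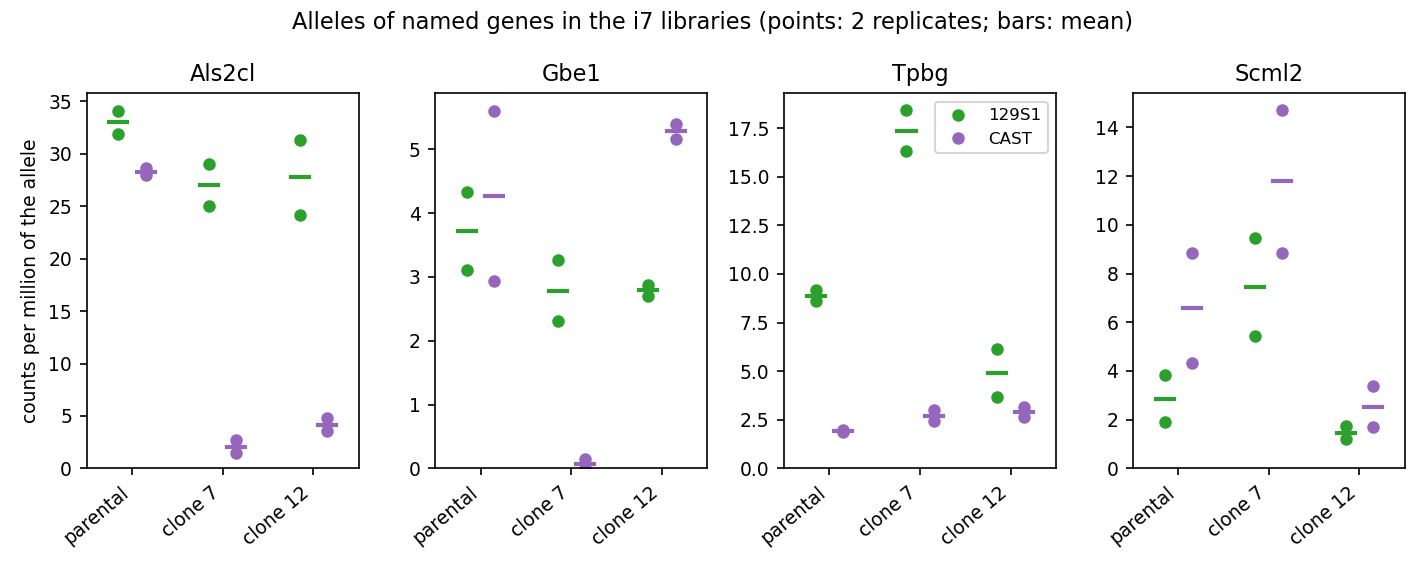
CPM of the 129S1 (green) and the CAST (purple) allele of Als2cl, Gbe1, Tpbg and Scml2 in the i7 libraries; points are the 2 replicates of each group and bars their mean. In clone 7 CAST Als2cl and CAST Gbe1 lie near 0 while the 129S1 alleles do not, and 129S1 Tpbg lies above its parental level.

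The genes next to Als2cl had few counts, and their CAST allele was low in clone 7 as well. GENCODE M21 has 13 genes between Ccdc12 and Tdgf1, of which 11 had a count in the i7 libraries. They include Myl3, a myosin light chain, the serine protease genes Prss42 to Prss50, Tmie, a part of the hair cell transduction channel, Als2cl and Fam240a. Their CAST counts summed to 137 and 193 in the parental libraries and to 8 and 23 in clone 7, which is 12.8-fold lower after scaling. Without Als2cl the sums were 30 and 38 against 2 and 4, which is 13.6-fold lower. The 129S1 sums with Als2cl were 152 and 202 in the parental line and 138 and 224 in clone 7. In clone 12 the CAST sums without Als2cl were 6 and 7, so the low CAST counts were not particular to clone 7.

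Prss50, a testis protease, had 7 and 15 CAST counts in the parental libraries and 0 and 1 in clone 7 (log2 change -4.33, SE 1.50, unadjusted p 0.0102). Its 129S1 counts were 3 and 5 against 2 and 6. Prss42 had 9 and 7 CAST counts against 1 and 2, and 6 and 3 129S1 counts against 3 and 16. Each clone 7 library had fewer CAST counts of both proteases than either parental library.

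Gm43127, a gene model antisense to Als2cl, had 6 and 4 CAST counts against 0 and 0, at least 4.01-fold lower after scaling when the floor of 3 counts is set over both clone 7 libraries (unadjusted p 0.00318). Prss45 had 1 and 5 against 0 and 0, Myl3 4 and 2 against 0 and 0, and Tmie 1 and 3 against 0 and 0. For Prss45 and Myl3 this is at least 2.40-fold lower and for Tmie at least 1.60-fold lower. These members were chosen after their values were seen, with the exception of Prss50 and Gm43127, tested in CAST counts, and Prss42, tested in the sum of both alleles only. Gm43127 and Als2cl lie on opposite strands of the same stretch, and the ends of Tmie and Als2cl overlap. The strand setting of the counting is not given in the sources used here, so reads of these pairs cannot be told apart.

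On both sides, genes with more counts had CAST counts near the parental level. Ccdc12, a splicing factor on the left, had 217 and 306 CAST counts in the parental line and 206 and 341 in clone 7 (log2 change -0.20, SE 0.234). Tdgf1 on the right had 5930 and 8949 CAST counts against 7024 and 12877 (0.14, SE 0.387). Rtp3, a receptor transporter protein, had 184 and 234 against 201 and 310 (0.02, SE 0.364), and Lrrc2 173 and 278 against 206 and 331 (0.01, SE 0.317). None of these flanking genes passed the test in either direction.

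Over the window of 1.5 Mb on each side of the start of Tdgf1, 34 genes were tested in the sum of both alleles and 0 were called, with 1, Prss50, at an unadjusted p under 0.05 (0% called among all 16253 genes). After scaling, the CAST counts of the genes to the left up to Ccdc12 were 1.03-fold and those from Tdgf1 to the right 0.913-fold in the parental line relative to clone 7. Tdgf1 alone held 14879 of the 17766 parental CAST counts on the right, so that sum is mostly 1 gene. On the left the CAST log2 changes of 17 tested genes ran from -0.92 (Klhl18) to 0.46 (Cspg5), with 0 at an unadjusted p under 0.05. The left side holds Smarcc1, a BAF complex subunit, with 1319 and 2138 CAST counts against 1507 and 2657. It also holds Setd2, the histone H3 lysine 36 methyltransferase, with 383 and 617 against 426 and 773. Of 28 genes of the window with CAST counts tested, 3 had an unadjusted p under 0.05 (Als2cl, Prss50 and Gm43127), all lower in clone 7 and all between Ccdc12 and Tdgf1. Among all CAST counts tested the share at that p was 0.43%. The window was chosen with earlier results of these data known, so the difference in share is no test of the window. Gm43127 lies inside Als2cl on the opposite strand, so the 3 genes are not 3 separate observations.

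**Figure D2:**
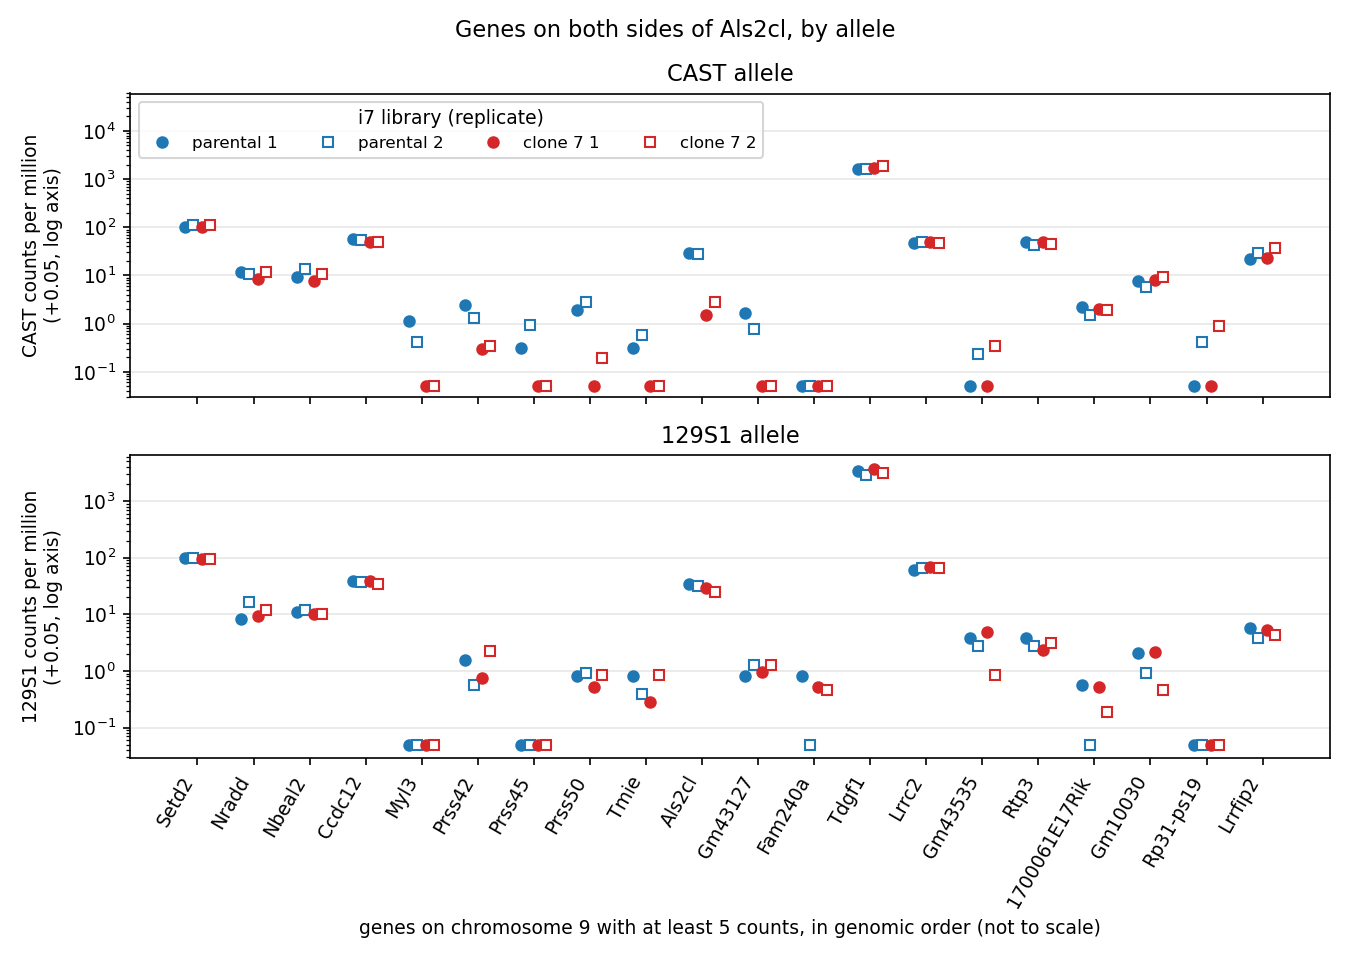
CPM of the CAST (top) and 129S1 (bottom) allele, plus 0.05 on a log axis, for the genes from Setd2 to Lrrfip2 on chromosome 9 with at least 5 counts, in genomic order; blue is parental, red clone 7, filled replicate 1 and open replicate 2. From Myl3 to Gm43127 the red CAST points lie below the blue ones, while those of Lrrc2 and Rtp3 overlap, and Ccdc12 lies slightly lower and Tdgf1 slightly higher in clone 7.

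A search of all genes for the same pattern found 1 more locus. Among 12697 genes with at least 20 CAST counts over the 4 libraries, 3 were at least 4-fold lower in clone 7 in both pairs of libraries with the same replicate number, and 1 was at least 4-fold higher. The 3 were Als2cl, Prss50 and Gbe1. Among 12534 genes with at least 20 counts of 129S1, 0 were 4-fold lower and 1 was 4-fold higher. The genes higher in clone 7 had few counts: 2300002M23Rik had 1 and 1 CAST counts in the parental line and 11 and 10 in clone 7, and Uggt2 2 and 3 counts of 129S1 against 11 and 17. Genes found in this way were chosen after their values were seen.

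Gbe1 encodes the glycogen branching enzyme (ENSMUSG00000022707.16, chromosome 16, 70313949 to 70569716, plus strand). It had 11 and 31 CAST counts in the parental libraries and 0 and 1 in clone 7. Its 129S1 counts were 17 and 18 in the parental line and 10 and 24 in clone 7. The CAST counts of the groups do not overlap, and those of 129S1 do.

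CAST Gbe1 was 4.27 ± 1.88 CPM in the parental line and 0.0713 ± 0.101 CPM in clone 7 (SD, n = 2). The summed counts, 42 and 1, had a ratio of 50.5 after scaling to depth, with a wide 95% counting interval of 8.58 to 2041 that rests on 1 count. The log2 change of the CAST counts was -5.22 (SE 0.840) with an adjusted p of 0.0725, and with a term for the replicate number the adjusted p was 0.00808. It was -7.21 without replicate 2 of clone 7, which leaves 0 counts in that group, and -4.66 without replicate 2 of the parental line. The log2 change of the allelic ratio, 4.94 (SE 0.987), did not pass (adjusted p 0.404). The sum of both alleles was 28 and 49 against 10 and 25 counts (log2 change -1.42, SE 0.517, unadjusted p 0.0137) and did not pass.

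Gbe1 differed between clone 7 and clone 12, though it was chosen for its low CAST counts in clone 7, which favours a difference. Clone 12 had 26 and 35 CAST counts of Gbe1, and CAST counts were lower in clone 7 by a log2 difference of -5.50 (SE 0.821, adjusted p 0.00388). The ratio differed as well (5.59, SE 0.942, adjusted p 9.05e-04). In every other library of the series Gbe1 had between 3 and 52 CAST counts. The nearest tested neighbours, which lie far from Gbe1, kept their CAST counts near the parental level. Robo1, an axon guidance receptor gene that starts at 72308306, had 95 and 173 in the parental line and 101 and 220 in clone 7. The pseudogene Gm46542, at 68888346 to 68888595, had 52 and 183 against 51 and 213, with 0 counts of 129S1 in all 4 libraries. These 2 genes do not show how the stretch next to Gbe1 behaved.

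**Figure D3:**
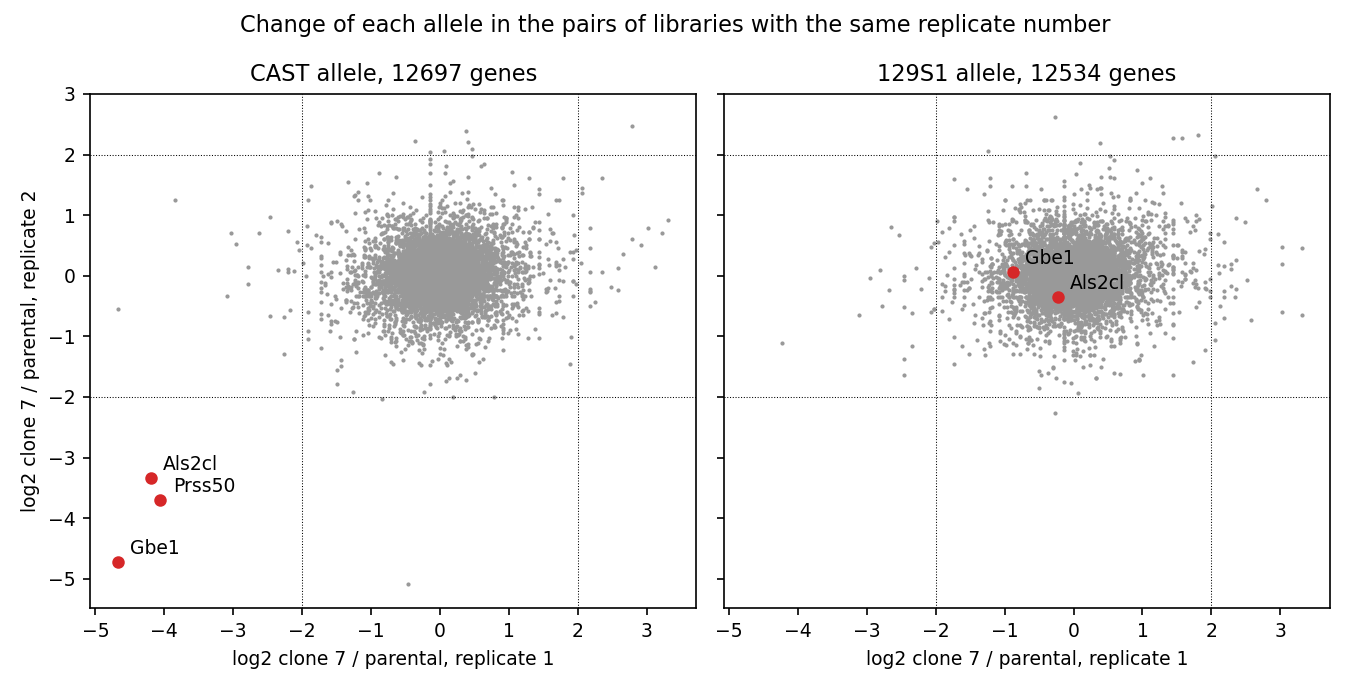
Log2 change of the CAST (left) and 129S1 (right) allele from parental to clone 7, replicate 1 on the x axis and replicate 2 on the y axis, for genes with at least 20 counts of the allele over the 4 libraries (0.5 counts added); dotted lines mark 4-fold. In the CAST panel Als2cl, Prss50 and Gbe1 lie alone in the lower left corner, and Als2cl and Gbe1 lie within the cloud in the 129S1 panel.

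Outside these loci few genes stood apart from the parental line in the tests. In the sum of both alleles 0 of 16253 genes were called by edgeR's quasi-likelihood test (0% called), with 48 at an unadjusted p under 0.05 (0.295%), 28 higher and 20 lower. DESeq2 called 0 as well. In the 129S1 counts 0 of 13919 genes were called (57 at an unadjusted p under 0.05, 0.41%, and 0 by DESeq2). In the CAST counts 0 of 13951 were called (60 at an unadjusted p under 0.05, 0.43%), and DESeq2 called 1, Als2cl. The median SE of the log2 change was 0.349 in the sum and 0.350 in CAST counts, so a count of 0 does not show that genes were at the same level.

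Clone 7 and parental libraries of the same replicate number were more alike than the replicates of either group. Over the 11048 genes that averaged 50 counts or more, the log2 difference between clone 7 and parental libraries of the same replicate number had an SD of 0.211 for replicate 1 and 0.198 for replicate 2. Between the replicates of clone 7 it was 0.387 and between the parental replicates 0.356. Clone 7 and parental libraries of different number had an SD of 0.366 and 0.393, in the range of the replicates or just above it. In the pairs of the same number 13 and 8 genes differed by more than 2-fold, against 254 between the replicates of clone 7. The libraries were all distinct, and the most alike, replicate 1 of both groups, differed with a chi-square per degree of freedom of 2.66.

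Among the genes with the smallest p-values in the sum of both alleles, Tpbg came first. Tpbg encodes trophoblast glycoprotein, a membrane protein that embryonic stem cells gain on differentiation. It had 43 and 61 counts in the parental line and 90 and 141 in clone 7 (log2 change 0.89, SE 0.242, unadjusted p 0.0018, adjusted p 1). Most of the difference lay in the 129S1 allele, with 36 and 50 counts against 80 and 120. The CAST allele had 7 and 11 against 10 and 21. Groups did not overlap in scaled counts, which the rule that named genes by the sum required, and Tpbg did not pass.

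Scml2, an X-linked Polycomb group gene, had 48 and 35 counts against 102 and 102 (log2 change 1.04, unadjusted p 0.0063). The change was 0.60 to 1.60 when 1 library was left out, lowest without replicate 2 and highest without replicate 1 of the parental line. Both alleles were higher, with 15 and 11 against 41 and 40 counts of 129S1 and 33 and 24 against 61 and 62 counts of CAST. Serpina3h, a serine protease inhibitor gene with counts on 129S1 only, had 70 and 104 against 118 and 200 (0.60, unadjusted p 0.0227). Near-identical Serpina3 copies could share its reads.

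Spic, an ETS factor, had 110 and 166 counts in the parental line and 174 and 311 in clone 7 (0.54, unadjusted p 0.0495). Gm43549 had 27 and 32 against 77 and 84 (1.23, unadjusted p 0.0267). Of the other genes that the rule took for the sum of both alleles, the germ cell RNA-binding gene Dazl, the keratinocyte gene Kdf1 and the Fc receptor gene Fcgr3 were higher, by 0.63 to 0.67 on the log2 scale. That of Dazl, 0.67, was 0.14 without replicate 2 of clone 7 and 1.03 without replicate 1. Gde1, a phosphodiesterase, and Magi1, a junction scaffold, were lower, with log2 changes of -0.44 and -0.37. All of these 5 had an unadjusted p over 0.05 and an adjusted p of 1.

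Gbe1 had the smallest p-value of the allelic ratio after Als2cl (unadjusted p 7.49e-05). Among genes that averaged 20 or more counts on each allele, those with the smallest p-values after Als2cl had ratio changes in both directions, and none passed. Ptch1, the Hedgehog receptor, had 338 and 522 counts of 129S1 against 282 and 507 and 348 and 494 counts of CAST against 464 and 614 (log2 ratio change -0.51, SE 0.133, unadjusted p 0.00115). Nphp4, a cilium gene, had 53 and 80 against 74 and 144 counts of 129S1 and 74 and 96 against 44 and 80 of CAST (1.17, SE 0.321, unadjusted p 0.00171). Thap4, Rpp21 and Agpat4 had log2 ratio changes of -0.58, -1.07 and -0.86, and Adat3 and Prpf40b of 1.39 and 0.93.

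Among genes that averaged 20 or more counts of an allele, those with the smallest p-values of that allele were also not called, and Als2cl, Tpbg, Scml2 and Spic are given above. In the 129S1 counts Pfkfb4, a regulator of glycolysis on chromosome 9, had 31 and 39 counts against 17 and 25, and Tepsin had 41 and 45 against 13 and 42. In the CAST counts Raet1d and Raet1e, ligands of the NKG2D receptor, had the same 17 and 31 against 47 and 65 counts, so their reads cannot be told apart. Gm42047 had 39 and 37 against 113 and 87, and Fam92a 61 and 129 against 140 and 213 (unadjusted p 0.0188).

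Gene lists of cell state and of nuclear organisation were then read from the same fit. Of the 276 genes of 18 lists, 225 were tested in the sum of both alleles and 0 were called (0% of all genes called). At an unadjusted p under 0.05 there was 1 gene (0.444% of them, against 0.295% of all genes). It was Pdgfra, a primitive endoderm receptor, with 3 and 2 counts in the parental line and 11 and 13 in clone 7. Of the 9 tested genes of its list 5 were higher and 4 lower, and Sox7, an endoderm transcription factor, had 5 and 4 counts against 0 and 3. Of the 182 list genes with a tested ratio 0 were called, and 1, the imprinted gene Peg3, had an unadjusted p under 0.05 (log2 ratio change -0.38, unadjusted p 0.0370), where the share among all genes was 1.94%.

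All 15 general and naive pluripotency factors were tested, with a median log2 change of 0.01, and 0 were called. Nanog had 1048 and 1039 CPM in the parental libraries and 1110 and 1104 in clone 7. Esrrb had 848 and 701 CPM against 857 and 665, with replicates further apart than groups. The lowest of the list was Klf2 (-0.38, SE 0.471) and the highest Dppa3 (0.23, SE 0.591).

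The 22 genes of the nuclear lamina and inner nuclear membrane had a median log2 change of -0.01, with 10 higher and 12 lower and 0 called. Lmnb1, which encodes lamin B1, had 317 and 382 CPM in the parental line and 342 and 370 in clone 7. Lbr, the lamin B receptor, had 219 and 226 CPM against 210 and 232. All members lay between -0.22 (Syne3) and 0.16 (Syne1). The 16 tested genes of H3K9 methylation and heterochromatin had a median of -0.01, and the 23 BAF complex subunits a median of -0.02, with 0 called in each.

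Of the Nodal and Cripto genes 15 were tested and 0 called, with a median of 0.03. Tdgf1 had 2535 and 2259 CPM against 2735 and 2521, and Lefty1, a Nodal target and antagonist, 6.31 and 18.8 against 7.58 and 10.1. Of the 19 glycolysis and hypoxia genes 16 were lower in clone 7 and 3 higher, with a median of -0.15 and 0 called, against a median of 0.01 over all genes. Ldha had 1667 and 1607 CPM in the parental line and 1624 and 1157 in clone 7, a difference that lay in replicate 2. The lists of p53 targets, ATF4 response and sterol synthesis had medians of 0.03, -0.02 and 0.03 with 0 called.

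The list medians farthest from 0 were those of the early neural list (5 genes, median 0.39) and of the two-cell-like list (1 gene, Tcstv3, -0.75, with 0 and 3 counts against 0 and 2). Sox1, a neural marker, had 7 and 12 counts in the parental line and 14 and 28 in clone 7. The neuronal tubulin gene Tubb3 had 113 and 229 against 129 and 179, and Nes, the gene of the filament protein nestin, 385 and 572 against 404 and 860. Nefm had 200 and 281 counts against 441 and 517 (log2 change 0.79, SE 0.633). In the early neural list 4 of the 5 tested genes were higher and 1, Tubb3, was lower, with 0 called. Of 24 tested imprinted genes 16 were higher and 8 lower (median 0.11). Rian, a maternally expressed non-coding RNA, had 5848 and 7406 counts against 7048 and 10699 (0.15, SE 0.186). Xist had 12 and 12 counts against 18 and 16.

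**Figure D4:**
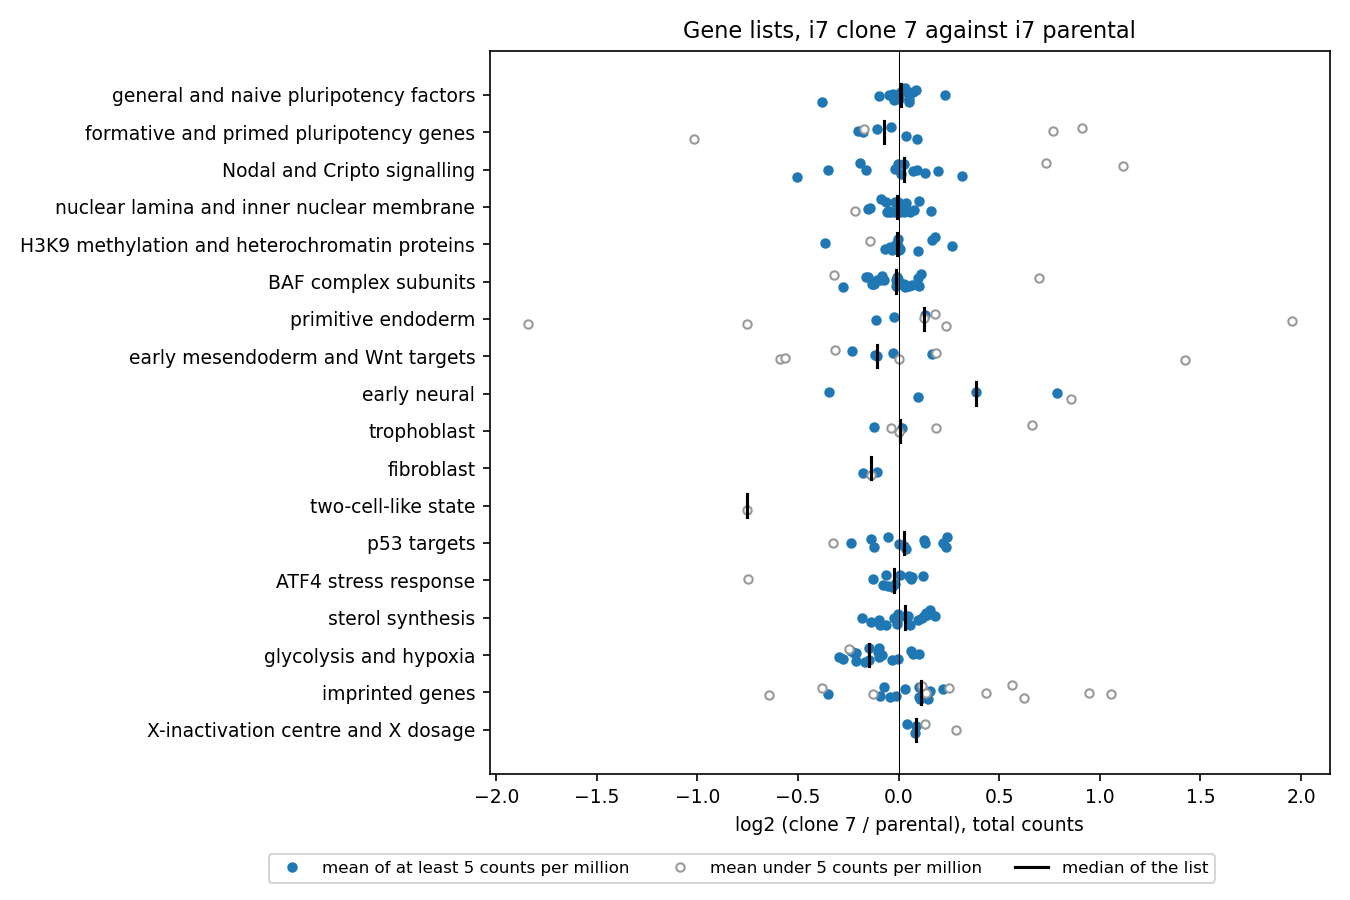
Log2 change from parental to clone 7 in the sum of both alleles for the tested members of the 18 gene lists; each point is a gene, filled with a mean of at least 5 CPM over the 4 libraries, and the bar is the list's median. List medians ran from -0.75 (a list with 1 tested gene) to 0.39, and the points far from 0 are mostly genes under 5 CPM.

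The median gene of each chromosome of clone 7 lay near the parental level. The median log2 change per chromosome, as the mean over the 2 pairs of libraries, ran from -0.02 (chromosome 8) to 0.06 (chromosome X) in the sum of both alleles. In CAST counts it ran from -0.02 to 0.05, in 129S1 counts from -0.02 to 0.08 and in the ratio from -0.02 to 0.04. Chromosome X gave the upper end in 129S1 counts and in the ratio. It had 202 genes in 129S1 counts against 427 in CAST counts. Its ratio, over 137 genes, was 0.09 and -0.003 in the pairs. The parental replicates differed by -0.07 to 0.01 per chromosome in the sum. On chromosome 9, which holds Als2cl, the median CAST change was 0.01 in both pairs, and on chromosome 16, which holds Gbe1, 0.03 in both. The largest shift of clone 12, on chromosome 19, was 0.46 and 0.48 in the sum and 0.89 and 0.83 in CAST counts, where clone 7 had 0.01 and -0.04 in CAST counts.

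**Figure D5:**
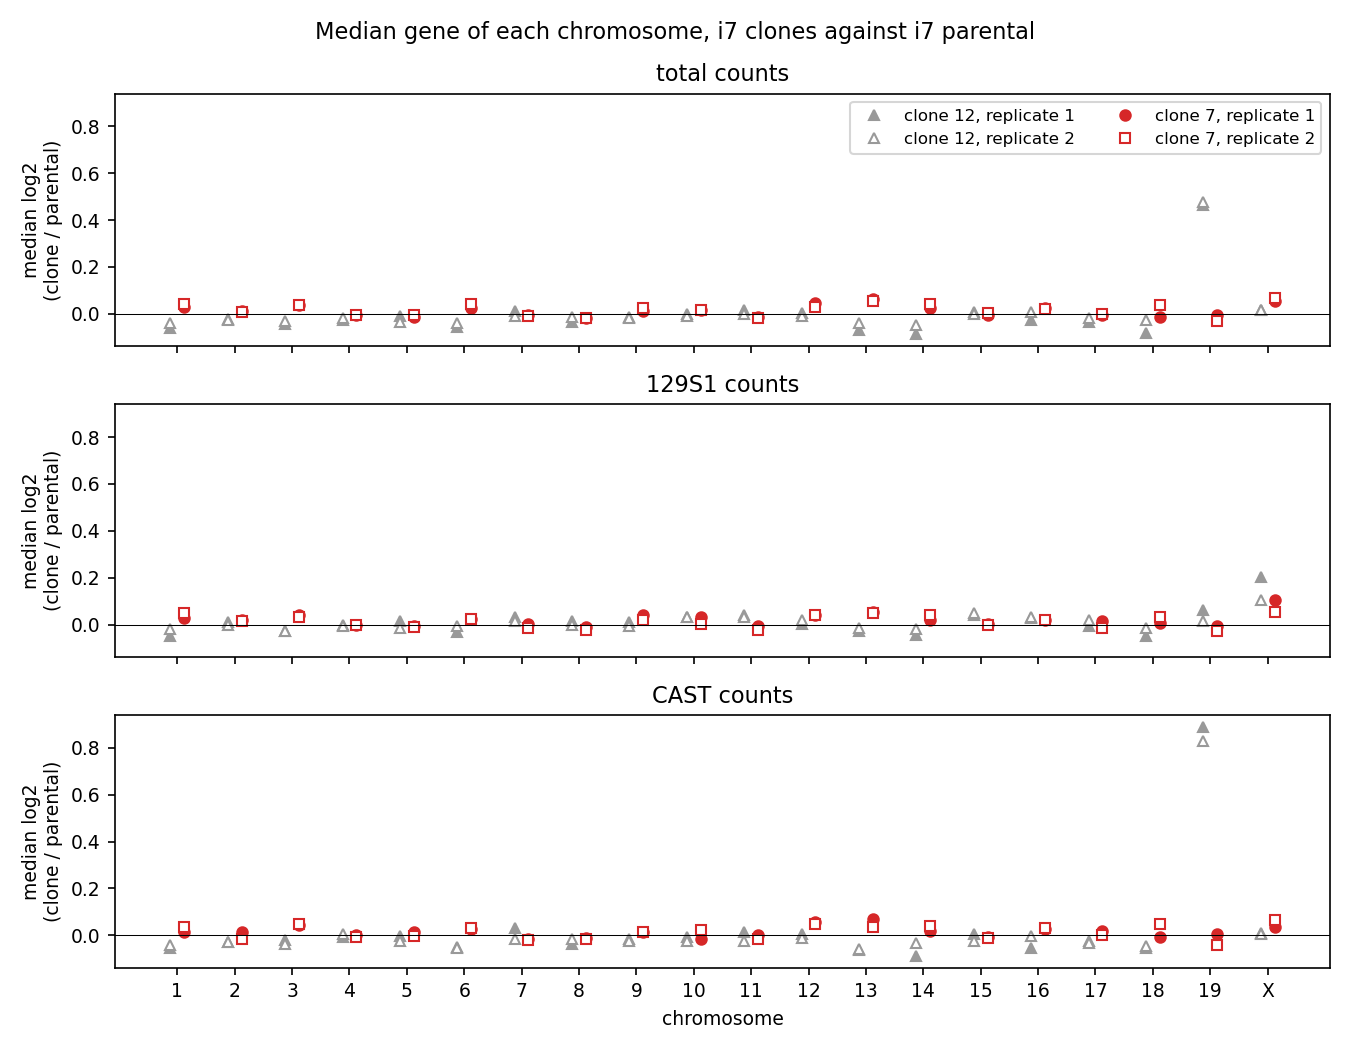
Median log2 change of the genes of each chromosome against the i7 parental library with the same replicate number, for the sum of both alleles, 129S1 and CAST counts; red is clone 7 and grey clone 12, filled replicate 1 and open replicate 2. Clone 7 lies near 0 on each chromosome, whereas clone 12 lies at 0.46 and 0.48 on chromosome 19 in the sum.

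Clone 7 was tested against clone 12 to ask whether the i7 clones differ. In the sum of both alleles 15 of 16253 genes were called (0.0923%), 8 higher (0.0492%) and 7 lower (0.0431%) in clone 7, with 4 of them on chromosome 19. Tpbg, Scml2 and Serpina3h were among those higher in clone 7, by 1.39, 2.28 and 1.38 on the log2 scale (edgeR adjusted p 0.0398, 0.0146 and 0.0398). In clone 12 Tpbg had 35 and 58 counts, Scml2 26 and 19 and Serpina3h 62 and 63, so clone 7 was the higher of the clones. Tpbg, Scml2 and Serpina3h were named for their values in clone 7 against the parental line, which favours a difference here. This count of 15 was 0 without either replicate of clone 7 or without replicate 2 of clone 12, and 2 without replicate 1 of clone 12. With a term for the replicate number it was 1587.

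The allelic ratio differed between the clones in 257 of 10795 genes (2.38%), of which 223 lay on chromosome 19. It was higher in clone 7 in 239 of them (2.21% of the genes tested) and lower in 18 (0.167%). In CAST counts 100 of 13951 genes differed between the clones (0.717%) and in 129S1 counts 3 of 13919 (0.0216%). Agpat4, on chromosome 17, had a lower ratio in clone 7 by a log2 difference of -1.39 (SE 0.240, adjusted p 0.00115), and Nphp4, on chromosome 4, a higher one by 1.39 (SE 0.319, adjusted p 0.0175). Agpat4 and Nphp4 were named for their ratio in clone 7 against the parental line, which favours a difference here. Both clones are compared with the same parental libraries in the other results, and each clone is 1 clone.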

How the data were processed

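Poly(A) RNA of 24 libraries in 12 groups of 2 was read from a single end over 75 bases after stranded library preparation, per the labels' protocols. The authors deposited 1 table of raw counts, whole numbers per gene, with a 129S1 and a CAST column per library. STAR, SAMtools and mm10 are named in the submitters' processing notes. The counting program, its strand setting and the handling of reads that cover no variant are not given in the sources used here. That handling can change every allelic value. Gene identifiers are those of GENCODE M21 (GRCm38): 48301 of 48985 were identical with their version, and the 147 without a match held 0.0148% of the counts.

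Sums of both alleles, 129S1 counts and CAST counts were each tested with edgeR 4.0.16 (R 4.3.3), TMM and filterByExpr, in 1 quasi-likelihood fit with group terms over the 24 libraries. The fit of the sum left 12 residual degrees of freedom and a biological coefficient of variation of 0.246. For the ratio, genes averaging 10 or more counts on each allele entered a fit with library terms and an allele term for every group. Genes were called at a Benjamini-Hochberg adjusted p under 0.05 over all genes tested. CPM values are counts scaled to the effective library size, those of an allele to that allele's counts. The floor was 3 counts. A pair is a clone 7 and a parental library with the same replicate number. The fits were tested on simulated data.

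Named genes were the called ones, filled up to 10 for the sum, 8 for the ratio and 5 for each allele by smallest unadjusted p with minimum counts of 50 (sum, groups not overlapping) or 20 (allele). The rule added tested genes within 1.5 Mb of the start of Tdgf1, list members with an unadjusted p under 0.05 and the 2 members of each list with the most counts. Other genes were chosen after their values were seen, among them Gbe1, its neighbours, and the list members given as the lowest, the highest or as examples. The members, the lists and the window were chosen with earlier results of these data known. Alternatives were a replicate block, fewer libraries, other normalisation and filters, and DESeq2 1.42.0. Figures and tables used Python 3.11.15, pandas 2.3.3, numpy 2.4.6 and matplotlib 3.10.9.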

Additional observations from a re-analysis of the deposited data

Results flagged for a closer look

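Several named genes differed between clone 7 and clone 12 of i7 in edgeR's quasi-likelihood test (Benjamini-Hochberg adjusted p), so the change against the parental line was not alike in the 2 clones. The values are log2 differences of clone 7 minus clone 12. Apart from Psat1, the genes were named for their values in clone 7 against the parental line. The same clone 7 libraries are used here, so that choice favoured a difference.

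Tpbg differed by 1.39 in the sum of both alleles (adjusted p 0.0398), by 1.80 in 129S1 counts (0.0178) and by 1.85 in the allelic ratio (0.00612). Scml2 differed by 2.28 in the sum (adjusted p 0.0146) and by 2.22 in CAST counts (0.00944). Serpina3h differed by 1.38 in the sum (adjusted p 0.0398). Against the parental line these 3 genes had log2 changes of 0.89, 1.04 and 0.60 in clone 7, which did not pass.

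Gbe1 differed by -5.50 in CAST counts (adjusted p 0.00388) and by 5.59 in the ratio (9.05e-04). The ratio of Nphp4 differed by 1.39 (adjusted p 0.0175) and that of Agpat4 by -1.39 (0.00115). The ratio of Psat1, a serine synthesis gene on chromosome 19, differed by 1.01 (adjusted p 1.91e-04), where clone 7 had 0.05 against the parental line. Over chromosome 19 the median log2 ratio change of clone 12 against the parental line was -0.86 and -0.88, so Psat1 does not stand apart from its chromosome.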

How the results depend on the processing

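With 2 replicates per group, 1 clone and low counts at most genes next to Als2cl, the precision was low, with a median SE of the log2 change of 0.349 in the sum of both alleles. The count of called genes against the parental line stayed at 0 in the sum and in 129S1 counts under all alternatives run. In CAST counts it was 0 and became 2 with the replicate block (Als2cl and Gbe1), 1 with the i7 libraries alone (Als2cl, adjusted p 0.0455), 2 without the filter on low counts and 1 with DESeq2 (Als2cl, adjusted p 2.86e-05). It was 0 in each fit that left out 1 replicate. For the ratio, and for the window on chromosome 9, the count of 1 became 0 in a fit of the 4 libraries alone (the cause was not tested) and 0 with at least 50 counts per allele, where Als2cl was not among the genes tested. Both stayed at 1 without any 1 replicate. Between the clones the 15 genes of the sum became 1587 with the replicate block, 772 with the i7 libraries alone, 329 with the 4 libraries alone, 221 without the filter, 25 with at least 50 counts and 163 with DESeq2, and 0 to 2 without 1 replicate. The cause was not tested. The 257 genes of the ratio became 170 with the 4 libraries alone, and 148 to 183 without 1 replicate; the cause was not tested.

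The replicate difference correlated over 16253 genes with r of 0.458 between clone 7 and the parental line, 0.326 between clone 12 and the parental line and 0.425 between the clones. With 2 pairs this does not show that the numbers pair the samples, and the labels do not say so. The main fit has no replicate term, so any difference shared by libraries of the same number counts as error in it. In the sum 0.295% of genes had an unadjusted p under 0.05 by the quasi-likelihood test, fewer than that threshold gives without any change. The p-values of the main fit may thus be too large, which was not tested. With the block the ratio stayed at 1 gene against the parental line and gave 345 between the clones. Of 372 values of single genes and chromosomes under the alternatives, 365 kept their direction and their side of the threshold, 6 passed where they had not, 1 no longer passed (Als2cl, ratio, 4 libraries alone) and 0 reversed.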
